A study of Mus musculus with 11 samples.

Results

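The caveolae coat genes examined here are Cav1, Cav2, Cav3, Cavin1, Cavin2, Cavin3 and Ehd2. These 7 genes were taken by symbol from the 50686 genes of the count tables, and all 7 were found. They were selected on the measured counts of Cav1, which were lower in Rheb1 KO than in WT bulk tumours and went the other way in sorted TAM-MG. The values of Cav1 in these contrasts are therefore given as a description, without a test.

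Caveolae are small flask-shaped pits of the plasma membrane, abundant in endothelial cells, adipocytes, fibroblasts and muscle. Their coat is built from caveolins, which insert into the inner leaflet as oligomers, and from cavins, cytosolic proteins that assemble on caveolin-rich membrane, while the ATPase EHD2 sits at the neck and holds the pit at the membrane. In brain capillaries caveolae are scarce and vesicle transport is held down, and in glioma vessels they are studied as a route across the blood-brain barrier.

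Bulk RNA-seq came from GL261 tumours (GL261 is a mouse glioma cell line) grown in the brains of C57BL/6 mice, with 3 Rheb1 KO (replicates 26, 36 and 37) and 3 WT tumours (replicates 35, 38 and 110). TAM-MG, the tumour-associated microglia sorted as live CD11b+ CD45low cells, gave 3 Rheb1 KO (replicates 54, 63 and 65) and 2 WT libraries (replicates 74 and 78). According to the methods, Rheb1 KO mice (Cx3cr1-Rheb1 Δ/Δ) carry floxed Rheb1 and a tamoxifen-inducible Cre inserted in Cx3cr1, so that Rheb1 is deleted in Cx3cr1-expressing cells only, and WT mice (Rheb1 fl/fl) carry the floxed gene without Cre. Mice of both genotypes had tamoxifen 3 weeks before GL261 cells were injected at 6 weeks of age, and samples were taken 3 weeks after tumour initiation. The injected GL261 cells carry no Cre, and bulk RNA came from fixed, paraffin-embedded tissue. Separate labels mark each library as its own replicate, but do not tie it to a single mouse. The paper counts the bulk libraries as 3 tumours of each genotype. The p values measure the spread between these libraries, part of which may be technical.

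Total counts ran from 14940787 to 19798998 in bulk Rheb1 KO and from 15606224 to 21991348 in bulk WT tumours. They ran from 22132236 to 25945816 in Rheb1 KO and from 20765767 to 29947977 in WT TAM-MG. Rheb, the targeted gene (Rheb1 of the labels), was at 165 ± 52.7 CPM (counts per 1000000, with libraries scaled by TMM) in Rheb1 KO and 304 ± 60.9 CPM in WT tumours (SD, n = 3 each), with every Rheb1 KO tumour below every WT tumour. In TAM-MG it was at 67.8, 70.0 and 71.2 CPM in Rheb1 KO libraries and at 86.5 and 164 CPM in WT libraries. Gene counts also take in the exons left in place by the deletion. WT tumour 35 stood apart in that it had 10643 counts of Xist and none of Ddx3y, whereas the other 5 tumours had 0 to 5 counts of Xist and 956 to 2195 of Ddx3y, and values without it are given below. The microglial markers P2ry12, Tmem119 and Cx3cr1 averaged from 983 to 3149 CPM in Rheb1 KO TAM-MG and from 750 to 1543 CPM in WT TAM-MG.

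Cav1 (ENSMUSG00000007655) and Cav2 (ENSMUSG00000000058) are neighbours on the plus strand of chromosome 6 of GRCm38, at chr6:17306335-17341452 and chr6:17281185-17289115. The end of Cav2 lies 17219 bases before the start of Cav1, with no annotated gene lying wholly between them, and the first coding transcript of either gene has 3 exons. Cavin2 (ENSMUSG00000045954) lies on the plus strand at chr1:51289126-51302960. The sequences around the start sites of these genes are shown because the neighbours Cav1 and Cav2 differed in their values and because Cavin2 was the only other member past an unadjusted p of 0.05 in bulk tumours. Each is the plus strand from 250 bases before to 50 after the RefSeq start (GRCm38.p6), at chr6:17306085-17306384, chr6:17280935-17281234 and chr1:51288876-51289175. Capitals mark matches, on either strand, to GGGCGG (the GC box), CCAAT or TATAAA.
Cav1: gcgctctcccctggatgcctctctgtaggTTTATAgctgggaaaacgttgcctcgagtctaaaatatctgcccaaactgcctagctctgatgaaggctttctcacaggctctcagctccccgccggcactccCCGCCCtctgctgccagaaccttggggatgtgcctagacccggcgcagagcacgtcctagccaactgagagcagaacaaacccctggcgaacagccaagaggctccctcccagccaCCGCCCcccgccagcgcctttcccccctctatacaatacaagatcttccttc
Cav2: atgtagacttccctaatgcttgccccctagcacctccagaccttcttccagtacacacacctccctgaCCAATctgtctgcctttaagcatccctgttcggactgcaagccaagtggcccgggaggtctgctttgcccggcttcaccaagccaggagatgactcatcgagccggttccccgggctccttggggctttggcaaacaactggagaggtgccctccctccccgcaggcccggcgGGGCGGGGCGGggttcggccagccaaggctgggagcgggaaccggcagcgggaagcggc
Cavin2: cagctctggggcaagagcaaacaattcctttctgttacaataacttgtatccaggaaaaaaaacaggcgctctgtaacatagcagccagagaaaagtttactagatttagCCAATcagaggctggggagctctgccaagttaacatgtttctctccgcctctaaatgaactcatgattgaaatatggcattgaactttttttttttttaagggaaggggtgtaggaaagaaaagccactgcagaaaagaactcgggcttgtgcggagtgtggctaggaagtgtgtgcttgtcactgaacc

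The Cav1 window held 2 matches to GGGCGG and 1 to TATAAA, and no match to CCAAT. The Cav2 window held 2 matches to GGGCGG that share a base, and 1 to CCAAT. The Cavin2 window held 1 match to CCAAT alone, at a GC content of 43.3%, against 59.3% for Cav1, 64.3% for Cav2 and a median of 52.7% over all promoters. Of 32851 promoters of the same length, 35.7% held GGGCGG, 37.4% CCAAT and 13.6% TATAAA. The letters TTCNNNGAA and GGAATG, present in 8.30% and 14.7% of promoters, were in none of these windows. A second RefSeq start of Cav1 (window at chr6:17307390-17307689) held none of the 5 motifs. RefSeq promoters were matched for 6 of the 7 members, all but Cavin3, and a match is a description of letters, not of a bound site.

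Cav1, the caveolin needed to form caveolae outside striated muscle, was at 9.09, 14.6 and 14.8 CPM in Rheb1 KO tumours and at 103, 81.5 and 65.1 CPM in WT tumours. All 3 Rheb1 KO tumours lay well below all 3 WT tumours, with means of 12.8 ± 3.24 and 83.2 ± 19.0 CPM (SD, n = 3 each). The WT mean was 6.49 times the Rheb1 KO mean, and the fitted log2 fold change was -2.70 (standard error 0.43). TPM, which also correct for transcript length, gave 1.91, 4.01 and 3.10 in Rheb1 KO and 19.2, 17.1 and 11.9 in WT tumours. The fold change was -2.54 without WT tumour 35, and it ran from -2.86 to -2.50 when each tumour was left out in turn. In bulk RNA, fewer cells of a type and less RNA per cell cannot be told apart.

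Cav2, which forms mixed oligomers with caveolin-1, was at 82.6, 24.8 and 60.1 CPM in Rheb1 KO tumours and at 93.1, 83.6 and 91.2 CPM in WT tumours. Every Rheb1 KO tumour was below every WT tumour, but tumour 26 missed the lowest WT tumour by a narrow margin. The log2 fold change was -0.68 (standard error 0.43, adjusted p = 0.694, edgeR quasi-likelihood test), and -0.67 without WT tumour 35. The ratio of Cav1 to Cav2 TPM was 0.208, 0.800 and 0.332 in Rheb1 KO tumours, against 1.75, 1.63 and 1.43 in WT tumours. Thus Cav1 was the lower of the pair in each Rheb1 KO tumour and the higher in each WT tumour, a difference that the choice of Cav1 favours. Cav3 (chr6:112459505-112472872), the caveolin of striated muscle, had 1 count in Rheb1 KO tumour 37 and none in the other 5 tumours, and was not tested.

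Cavin1 (ENSMUSG00000004044, minus strand of chr11:100956733-100970887), the cavin required to form caveolae, was at 6.48, 38.2 and 54.1 CPM in Rheb1 KO tumours and at 100, 54.6 and 32.0 CPM in WT tumours. The groups overlapped, and the tumours of 1 genotype spread more widely than the genotypes differed (log2 fold change -0.92, standard error 0.69, edgeR adjusted p = 0.741). The value moved with single tumours, at -0.43 without WT tumour 35 and -1.48 to -0.43 when each tumour was left out. Cavin2, which shapes the membrane together with cavin-1 and is rich in endothelial cells and platelets, was at 17.0, 2.68 and 3.51 CPM in Rheb1 KO tumours and at 46.5, 16.8 and 34.9 CPM in WT tumours. Rheb1 KO tumour 26 matched WT tumour 38, and the other Rheb1 KO tumours were lower than every WT tumour. The log2 fold change of Cavin2 was -2.08 (standard error 0.84, edgeR adjusted p = 0.479, 0.0310 before adjustment), -3.40 without tumour 26 and -1.76 without WT tumour 35. Cavin3 (ENSMUSG00000037060, minus strand of chr7:105480083-105482300), which binds protein kinase C delta and caveolin-1, was at 56.2, 63.3 and 72.5 CPM in Rheb1 KO tumours and at 50.7, 65.6 and 71.4 CPM in WT tumours. In CPM its groups covered nearly the same range, with a log2 fold change of 0.03 (standard error 0.34, edgeR adjusted p = 0.988). This was -0.05 when libraries were scaled by size alone and -0.13 without WT tumour 35. In TPM, however, Cavin3 was at 55.9, 51.1 and 53.8 in Rheb1 KO and at 61.9, 57.8 and 78.4 in WT tumours, without overlap.

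Ehd2 (ENSMUSG00000074364, minus strand of chr7:15946958-15967567), the ATPase of the caveolar neck, was at 21.6, 16.7 and 15.5 CPM in Rheb1 KO tumours and at 37.2, 35.9 and 30.3 CPM in WT tumours. The 3 Rheb1 KO tumours were all below the WT tumours, with tight values within either genotype. The log2 fold change was -0.94 (standard error 0.51, edgeR adjusted p = 0.634, 0.0898 before adjustment), and -0.91 without WT tumour 35.

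**Figure D1:**
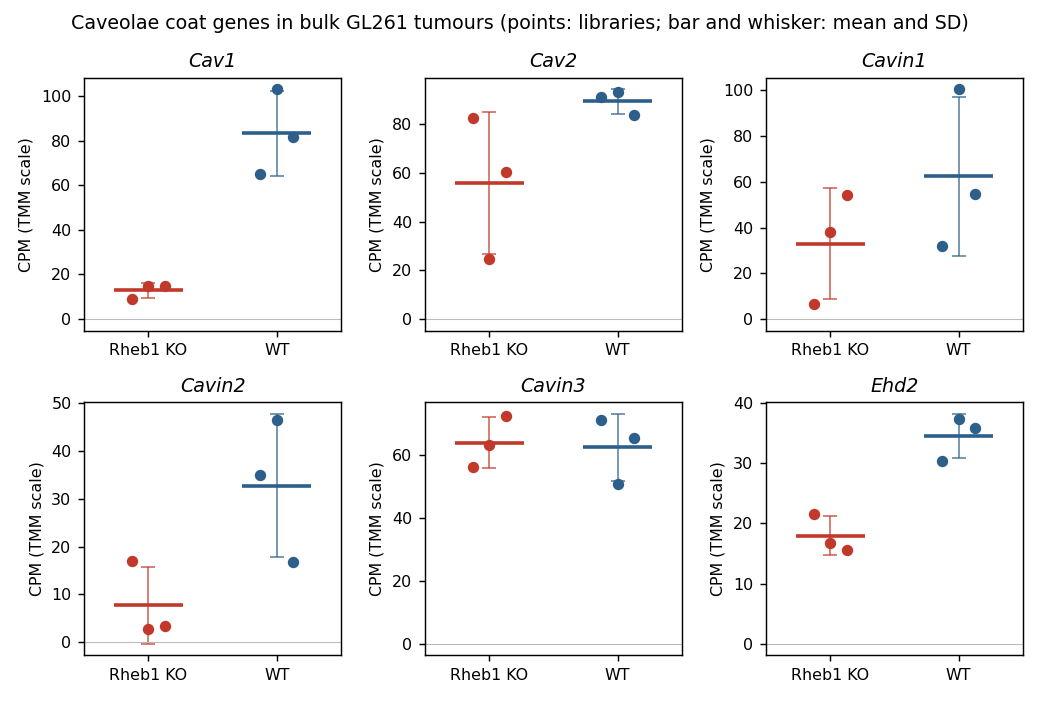
Each panel plots 1 gene in bulk GL261 tumours, with CPM on the TMM scale on the y axis, Rheb1 KO tumours left and WT tumours right, points for single tumours, and a bar and whisker for the mean and SD (n = 3 each). Cav1, Cav2 and Ehd2 had every Rheb1 KO tumour below every WT tumour, and Cavin3 spanned 56.2 to 72.5 CPM in Rheb1 KO and 50.7 to 71.4 CPM in WT tumours.

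Of the 6 members other than Cav1, 5 were tested in bulk tumours and 0 were called, which needs both an adjusted p under 0.05 and a 1.5-fold change. Across all 17028 genes tested the quasi-likelihood test also called 0 (0%), with 1533 genes (9.00%) at an unadjusted p under 0.05 and a smallest adjusted p of 0.0805. DESeq2 called 474 genes and edgeR's likelihood ratio test 383, and none of the 5 members was among them. At an unadjusted p under 0.05, Cavin2 was lower, against 5.19% of all tested genes. With Cav1 included, 5 of the 6 tested members had a negative log2 fold change, against 49.8% of all genes, and their median was -0.93, against 0.00 over all genes. In CPM, all Rheb1 KO tumours were below all WT tumours for 3 members, 1 of them Cav1, and for 9.23% of all genes. With so few members, and Cav1 among them by choice, these shares are given as a description. Summed CPM over the 7 members was 160 to 221 in Rheb1 KO and 325 to 431 in WT tumours. Without Cav1 the sum was 146 to 206 in Rheb1 KO and 256 to 328 in WT tumours, and it did not overlap. Cav1 made up 4.71% to 9.13% of the sum in Rheb1 KO and 20.04% to 24.1% in WT tumours.

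Markers of cells rich in caveolae were read beside these values. The 14 endothelial markers summed to 193 to 268 CPM in Rheb1 KO and to 197 to 293 CPM in WT tumours, and 11 mural markers to 117 to 215 CPM in Rheb1 KO and 180 to 247 CPM in WT tumours. Both sums overlapped between genotypes, with no endothelial and no mural marker at 0 in all tumours. Single endothelial genes went both ways, with 6 of 14 negative and 8 positive and none at an unadjusted p under 0.05. For example, the adherens junction gene Cdh5 averaged 9.08 CPM in Rheb1 KO and 21.7 CPM in WT tumours, and the junction gene Pecam1 averaged 10.1 CPM in Rheb1 KO and 7.10 CPM in WT tumours. Of 10 tested mural markers, the pericyte gene Rgs5 (53.96 CPM in Rheb1 KO and 105 CPM in WT tumours) was lower before adjustment (0.0413, edgeR adjusted p = 0.523), and smooth muscle Myh11 (1.05 to 11.8 CPM in Rheb1 KO tumours, no counts in WT tumours) was higher before adjustment (0.00176, edgeR adjusted p = 0.202). The 10 fibroblast markers summed to 319 to 730 CPM in Rheb1 KO and to 644 to 1022 CPM in WT tumours, again overlapping. Among them, Fn1, which encodes fibronectin, was at 72.4 to 135 CPM in Rheb1 KO and 263 to 618 CPM in WT tumours, without overlap (log2 fold change -1.96, standard error 0.39, edgeR adjusted p = 0.154, 0.000399 before adjustment). Mgp, the matrix Gla protein, averaged 171 CPM in Rheb1 KO and 72.2 CPM in WT tumours with overlap (1.24, standard error 0.50, edgeR adjusted p = 0.477, 0.0297 before adjustment). The part of fibroblast markers in the level of Cav1 was not tested.

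By contrast, the sum of 12 microglia and macrophage markers was 504 to 1010 CPM in Rheb1 KO and 1512 to 2236 CPM in WT tumours, without overlap and with all 12 log2 fold changes negative (median -1.54, none at 0 in all tumours). In 9 of the 12, the level was lower at an unadjusted p under 0.05 (5.19% of all genes). In the same genes every Rheb1 KO tumour was below every WT tumour (9.23% of all genes). Csf1r, the CSF1 receptor, averaged 84.5 CPM in Rheb1 KO and 253 CPM in WT tumours, and Itgam, which encodes CD11b, averaged 8.67 CPM in Rheb1 KO and 89.0 CPM in WT tumours. Of 9 markers on the microglia list, 8 had a negative and 1 (Sparc) a positive log2 fold change (median -1.80). At an unadjusted p under 0.05, 4 were lower, against 5.19% of all genes. In 5 every Rheb1 KO tumour was below every WT tumour, against 9.23% of all genes. Cx3cr1, which holds the inserted Cre in Rheb1 KO mice only, was among both the 4 and the 5. The sum of the 9 markers was 932 to 1498 CPM in Rheb1 KO and 1112 to 1546 CPM in WT tumours, with overlap. Sparc alone was at 899 to 1356 CPM in Rheb1 KO and 709 to 1303 CPM in WT tumours. It made up most of that sum, so that the overlap says little about the other 8. Most markers of these cells thus lay on the same side as Cav1, and their part in its level was not tested. Sums of 9 astrocyte, 10 neuron and 9 oligodendrocyte markers overlapped between genotypes, although single tumours differed widely, with the neuron sum at 1744 to 4336 CPM in Rheb1 KO and 2397 to 3337 CPM in WT tumours. The 10 striated muscle markers summed to 19.8 to 48.2 CPM in Rheb1 KO and to 9.86 to 17.9 CPM in WT tumours, without overlap. Of the 4 tested, 3 had a positive and 1 a negative log2 fold change, and Ckm and Myh4 were at 0 in all tumours. The sum of the 7 erythroid markers overlapped between genotypes.

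In sorted TAM-MG, Cav1 was detected in every Rheb1 KO library and hardly or not at all in WT libraries. It was at 12.6, 5.95 and 18.3 CPM in Rheb1 KO libraries, from 282, 155 and 448 counts. In WT libraries it was at 0.249 and 0 CPM, from 8 counts and 0. All 3 Rheb1 KO libraries were above both WT libraries, with means of 12.3 ± 6.18 CPM (SD, n = 3) and 0.125 ± 0.176 CPM (SD, n = 2). Over the pooled counts the Rheb1 KO level was 77.99 times the WT level. The fitted log2 fold change was 6.51 (standard error 1.95), and it depended on the WT library: it was 11.15 without WT library 74, which leaves a WT group without counts, and 5.61 without WT library 78. A count of 0 in WT library 78 allows up to 0.155 CPM (3 counts), counting error only. In TPM, Cav1 was at 6.12, 2.63 and 8.24 in Rheb1 KO and at 0.126 and 0 in WT libraries.

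Counts of 0 beside large counts were common in these libraries. Of 13327 genes with at least 100 counts in a TAM-MG library, 23.0% had 0 counts in another TAM-MG library, compared with 16.3% of 16397 such genes in bulk tumours. Among the members, 3 of the 5 with at least 100 counts in a TAM-MG library, Cav1, Cav2 and Ehd2, had 0 counts in another, against 0 of 6 in bulk tumours. The part of this dropout in the absence of Cav1 from a WT library was not tested.

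Cav2 was at 22.3, 8.41 and 1.55 CPM in Rheb1 KO TAM-MG and at 0 and 7.28 CPM in WT TAM-MG. The groups overlapped, and the log2 fold change of 1.56 had a standard error of 2.30 (edgeR adjusted p = 0.949). Cav1 and Cav2 did not follow each other among the Rheb1 KO libraries: replicate 65 had the highest Cav1 and the lowest Cav2, with a ratio of Cav1 to Cav2 TPM of 8.64, against 0.531 in replicate 54 and 0.658 in replicate 63. In WT libraries Cav1 was detected in replicate 74 alone and Cav2 in replicate 78 alone. Cav3 had no counts in any of the 5 libraries.

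Cavin1 was at 17.7, 7.87 and 5.19 CPM in Rheb1 KO TAM-MG and at 32.5 and 7.28 CPM in WT TAM-MG, with a log2 fold change of -0.96 (standard error 0.96, edgeR adjusted p = 0.894) that turned to 0.51 without WT library 74. Cavin2 was detected in Rheb1 KO library 54 alone, with 87 counts (3.88 CPM), and had 0 counts in the other 4 libraries. Pooled over libraries, this is at least 20.4-fold higher in Rheb1 KO than the floor of 3 counts over the WT group, but it rests on 1 library, and Cavin2 did not pass the filter on low counts. Cavin3 was at 14.05, 6.37 and 18.7 CPM in Rheb1 KO TAM-MG and at 17.4 and 38.9 CPM in WT TAM-MG, and was the only member other than Cavin1 with counts in every library. The Cavin3 groups overlapped (log2 fold change -1.11, standard error 0.72, edgeR adjusted p = 0.758). Ehd2 was at 10.7, 8.29 and 0 CPM in Rheb1 KO TAM-MG and at 24.0 and 0 CPM in WT TAM-MG, so that either genotype held a library without counts. Its log2 fold change of -0.92 (standard error 2.68, edgeR adjusted p = 0.984) became 10.19 when WT library 74 was left out, where the WT group has no counts.

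**Figure D2:**
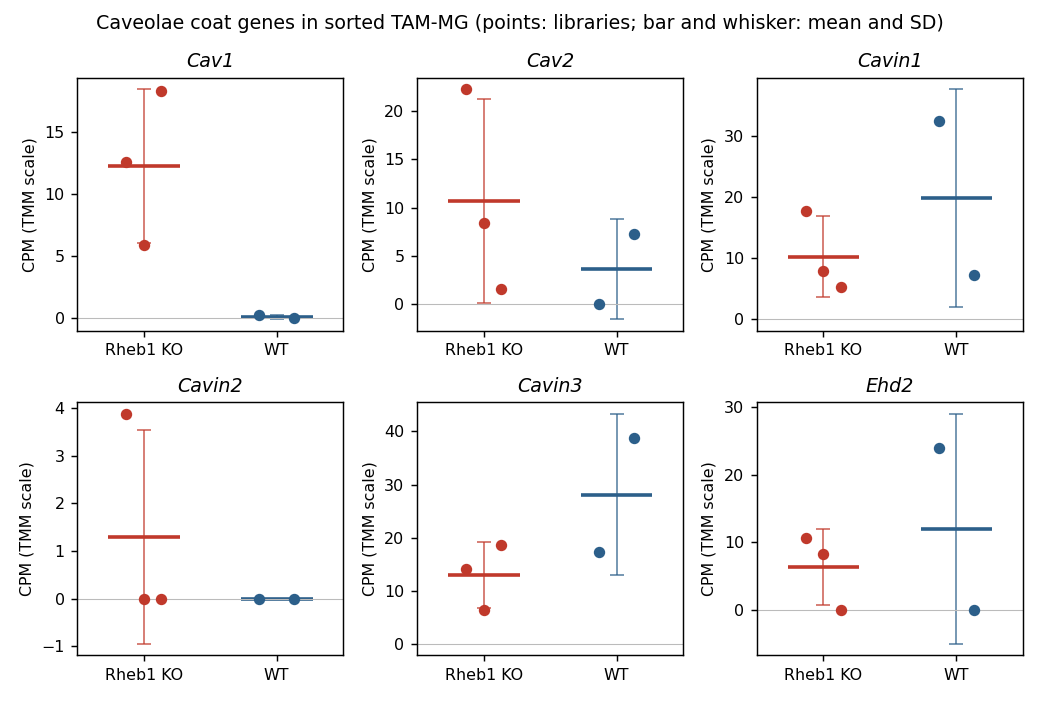
Each panel plots 1 gene in sorted TAM-MG, with CPM on the TMM scale on the y axis, Rheb1 KO left (n = 3) and WT right (n = 2), points for single libraries, and a bar and whisker for the mean and SD. Cav1 was at 5.95 to 18.3 CPM in Rheb1 KO and at 0 to 0.249 CPM in WT libraries, and the other 5 genes overlapped between genotypes.

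Of the 6 members other than Cav1, 4 were tested in TAM-MG and 0 were called. Over all 14872 tested genes the quasi-likelihood test called 0 (0%), with 1155 (7.77%) at an unadjusted p under 0.05 and none of the 4 members among them, while DESeq2 called 477 genes and the likelihood ratio test 245, again without these members. Of the 5 tested members including Cav1, 3 had a negative and 2 a positive log2 fold change, against 46.5% and 53.5% of all genes. The median was -0.92, against 0.08 over all genes. It was 4.25 without WT library 74 and 2.60 without WT library 78. In these 2 fits 6 members were tested, because Cavin2 passed the filter, so the medians cover unlike sets of genes. All Rheb1 KO libraries were above all WT libraries for Cav1 alone of the members, and for 14.6% of all genes. The summed CPM of the 7 members was 36.9 to 81.1 in Rheb1 KO and 53.4 to 74.1 in WT libraries, with Cav1 making up 15.5%, 16.1% and 41.9% of it in Rheb1 KO and 0.337% and 0% in WT libraries.

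Markers of other cells were read beside these values in TAM-MG as well. The 14 endothelial markers summed to 142 to 148 CPM in Rheb1 KO and to 109 to 114 CPM in WT libraries, without overlap. The tight junction gene Cldn5 averaged 45.4 CPM in Rheb1 KO and 11.5 CPM in WT libraries and did not overlap (edgeR adjusted p = 0.502, 0.0121 before adjustment). Cdh5 averaged 0.0854 CPM in Rheb1 KO and 1.29 CPM in WT libraries. In Rheb1 KO it was at most 0.134 CPM, at the floor of 3 counts. Kdr, the VEGF receptor, averaged 3.92 CPM in Rheb1 KO and 14.9 CPM in WT libraries. Both Cdh5 and Kdr were lower in every Rheb1 KO library. Pecam1 averaged 11.9 CPM in Rheb1 KO and 11.6 CPM in WT libraries. The endothelial list, of which no gene was at 0 in all libraries, was thus higher in sum while Cdh5 and Kdr were lower. Cldn5 had the largest rise in mean CPM of the list, so that the higher sum leans on 1 gene. Of the 10 tested endothelial genes, 4 had a negative and 6 a positive log2 fold change. The part of this list in the level of Cav1 was not tested. The 11 mural markers summed to 7.80 to 27.3 CPM in Rheb1 KO and 14.2 to 28.3 CPM in WT libraries, with Pdgfrb, Myh11, Kcnj8, Abcc9 and Des at 0 in all. The 10 fibroblast markers overlapped (143 to 835 CPM in Rheb1 KO and 164 to 548 CPM in WT libraries), with Lum at 0 in all. Most of that sum was Fn1, at 136 to 818 CPM in Rheb1 KO and 148 to 529 CPM in WT libraries. The fibroblast genes Col1a1, Col1a2, Col3a1 and Dcn averaged at most 5.39 CPM in either genotype. The 12 microglia and macrophage markers summed to 26672 to 36961 CPM in Rheb1 KO and 23851 to 32747 CPM in WT libraries, with overlap. Of the 9 markers on the microglia list, all had a positive log2 fold change (median 0.55). In 6 of them every Rheb1 KO library was above every WT library, against 14.6% of all genes. At an unadjusted p under 0.05, 2 were higher, against 7.77% of all genes in either direction. They were Sall1, a transcription factor of microglia (edgeR adjusted p = 0.502, 0.00136 before adjustment), and Olfml3 (edgeR adjusted p = 0.502, 0.0106 before adjustment). The 9 markers lay on the same side as Cav1 in TAM-MG as in bulk tumours, where Sparc was the exception, and their part in its level was not tested. Sums of astrocyte, oligodendrocyte and erythroid markers overlapped as well, and the neuron sum was 27.6 to 34.6 CPM in Rheb1 KO and 36.9 to 41.5 CPM in WT libraries. The 10 striated muscle markers summed to 8.29 to 23.3 CPM in Rheb1 KO and 36.3 to 37.5 CPM in WT libraries, with Myh2, Myh4, Myh7 and Des at 0 in all.

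**Figure D3:**
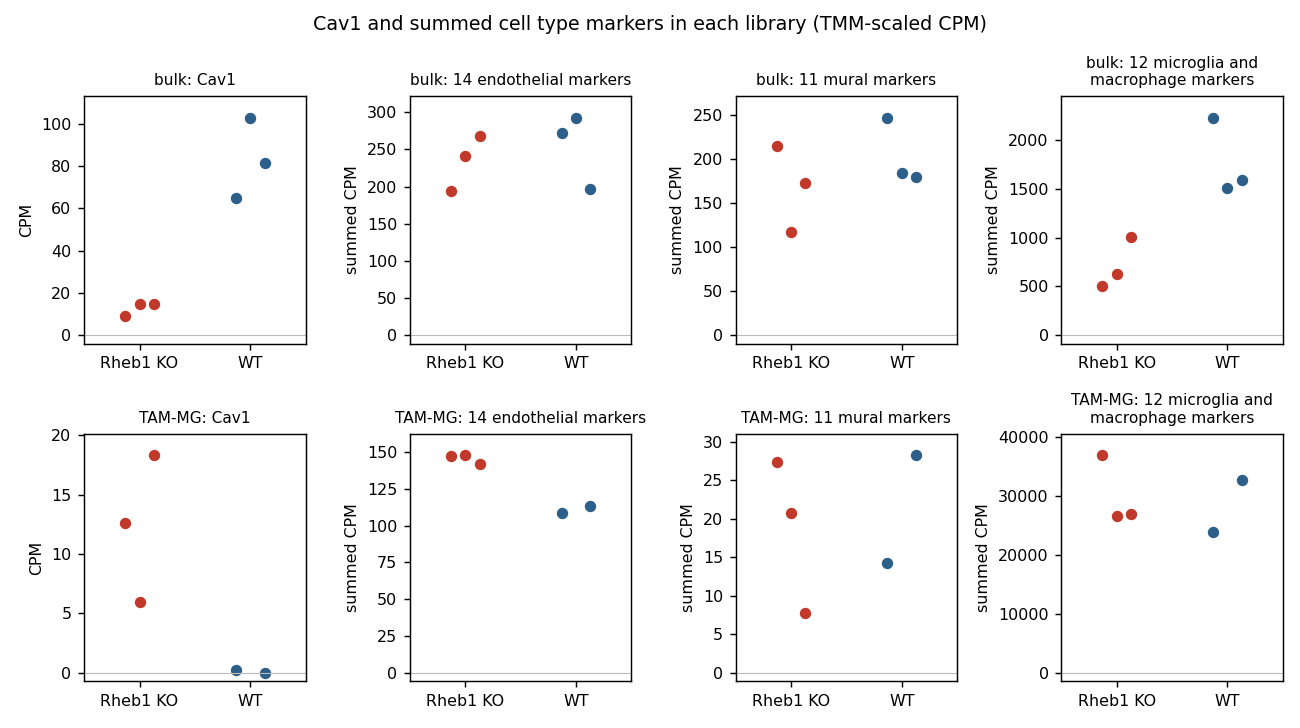
The panels plot Cav1 (CPM) and the summed CPM of endothelial, mural, and microglia and macrophage markers, with bulk tumours in the upper row and TAM-MG in the lower, Rheb1 KO left and WT right, and a point for each library. In bulk tumours the microglia and macrophage sum was 504 to 1010 CPM in Rheb1 KO and 1512 to 2236 CPM in WT. The endothelial sums overlapped there. In TAM-MG the endothelial sum was 142 to 148 CPM in Rheb1 KO and 109 to 114 CPM in WT, with Cldn5 rising the most.

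The genotype effect in TAM-MG was set against that in bulk tumours over all 11 libraries. For Cav1 the difference was 9.20 on the log2 scale (standard error 1.41), a description only. All Rheb1 KO libraries were above all WT libraries in TAM-MG and below them in bulk tumours for 219 of 12667 genes tested in both (1.73%), of which Cav1 was 1. None of the 5 other tested members was called for the difference, against 48 of 21342 genes (0.225%) and 2610 (12.2%) at an unadjusted p under 0.05. Cav2 had a difference of 2.24 (standard error 1.96, edgeR adjusted p = 0.781), Cavin1 of 0.02 (standard error 1.27, adjusted p = 0.99996), Cavin3 of -1.12 (standard error 0.75, adjusted p = 0.626) and Ehd2 of 0.09 (standard error 2.55, adjusted p = 0.99996). Cavin2 had a fitted difference of 10.12 (standard error 3.72, edgeR adjusted p = 0.339, 0.0207 before adjustment). It depends on the WT TAM-MG group without counts and is no bound, and it was 2.07 without Rheb1 KO TAM-MG library 54, where no TAM-MG library has counts. DESeq2 called this difference (9.41, adjusted p = 0.0412), and without WT TAM-MG library 78 edgeR called that of Cav2 (11.76, adjusted p = 0.0422), where the remaining WT TAM-MG library has no counts. The median difference over all genes was 0.30.

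**Figure D4:**
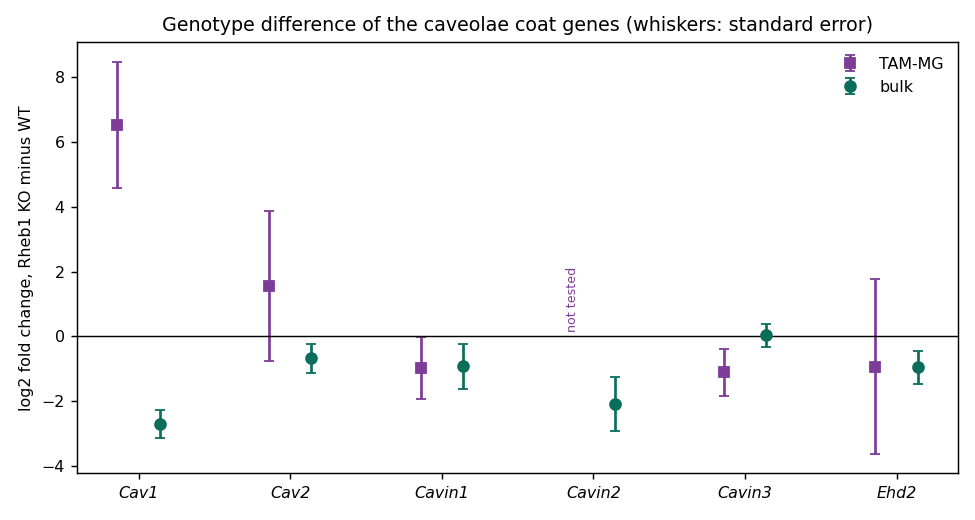
The plot shows the log2 fold change of Rheb1 KO over WT (y axis) of 6 members in TAM-MG (squares) and in bulk tumours (circles), with the standard error as a whisker. Cav1 was at 6.51 in TAM-MG and -2.70 in bulk tumours, and Cavin2 was not tested in TAM-MG.

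Per transcript length, and with both genotypes pooled, the order of the members was alike in both materials. Median TPM over the 6 bulk tumours was 56.8 for Cavin3, 17.8 for Cavin1, 9.26 for Cav2, 7.94 for Cav1, 6.12 for Ehd2 and 2.81 for Cavin2. The Cav1 median lay between its genotypes, at 1.91 to 4.01 TPM in Rheb1 KO and 11.9 to 19.2 TPM in WT tumours. Its order against Cav2 thus turned with genotype, as given above. Cavin3, at 51.1 to 78.4 TPM, was above each other member in every tumour, and the ranges of the other members overlapped those of their neighbours in the order. Over the 5 TAM-MG libraries, median TPM was 17.6 for Cavin3, 4.24 for Cavin1, 2.75 for Cav2, 2.63 for Cav1 and 1.90 for Ehd2, and the ranges from Cavin1 to Ehd2 overlapped. Bulk and TAM-MG values were normalized separately, and Cav3 was not among the 12719 genes of the bulk TPM values. An antisense gene, Gm15581, spans Cav1 and Cav2 but had no counts in any of the 11 libraries.

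Of the 22 other genes of the caveola pathway, 20 were tested in bulk tumours and 0 were called, with 7 negative and 13 positive log2 fold changes and a median of 0.21. At an unadjusted p under 0.05, 3 were higher (3.82% of all genes) and 0 lower. Plvap, the protein of caveolar and fenestral diaphragms in endothelium, was at 30.3 to 54.4 CPM in Rheb1 KO and 4.22 to 20.2 CPM in WT tumours, without overlap. Its log2 fold change was 1.80 (standard error 0.64, edgeR adjusted p = 0.413, 0.0172 before adjustment). Mfsd2a, the lipid transporter that holds down caveolar transcytosis at the blood-brain barrier, averaged 85.6 CPM in Rheb1 KO and 38.1 CPM in WT tumours, also without overlap (log2 fold change 1.17, standard error 0.42, edgeR adjusted p = 0.419). Dnm1, the neuronal dynamin, averaged 278 CPM in Rheb1 KO and 151 CPM in WT tumours, with overlap (0.88, standard error 0.37, edgeR adjusted p = 0.498). Plvap is endothelial and Dnm1 neuronal, and the sums of both marker lists overlapped between the genotypes as given above. The neuron sum was 4330 and 4336 CPM in Rheb1 KO tumours 26 and 36 and 1744 CPM in tumour 37. It was 2397 to 3337 CPM in WT tumours. The part of either cell type in the levels of Plvap and Dnm1 was not tested.

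The other tested genes of this list had an unadjusted p above 0.05 in bulk tumours. Ehd1, Ehd3 and Ehd4, relatives of Ehd2, differed by 0.26, 0.77 and 0.28 on the log2 scale, and the membrane-bending Pacsin2 and Pacsin3 by -0.40 and 0.998, with every Rheb1 KO tumour above every WT tumour for Pacsin3 (edgeR adjusted p = 0.738). The scavenger receptor Cd36 was at 1.15 to 10.2 CPM in Rheb1 KO and 4.54 to 40.4 CPM in WT tumours (-1.85, standard error 1.08, edgeR adjusted p = 0.662). Flna, an actin crosslinker that binds caveolin-1, had -0.47, and Src, the kinase that phosphorylates caveolin-1, 0.16. Cavin4, the muscle cavin, stayed under 0.45 CPM and was not tested, nor was Ror1, a receptor that scaffolds cavin-1 with caveolin-1, at 0.256 to 19.6 CPM in Rheb1 KO and 0 to 0.187 CPM in WT tumours. Nos3, the endothelial nitric oxide synthase bound by caveolin-1, was at 0.881 CPM in Rheb1 KO and 1.005 CPM in WT tumours on average.

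In TAM-MG, 18 of the 22 were tested, 0 were called and 0 had an unadjusted p under 0.05, with 4 negative and 14 positive log2 fold changes (median 0.49). DESeq2 and the likelihood ratio test called none of them either. Flot1, a flotillin of separate membrane domains, averaged 88.2 CPM in Rheb1 KO and 48.1 CPM in WT libraries, with every Rheb1 KO library above both WT libraries (0.87, standard error 0.41, edgeR adjusted p = 0.556). Its partner Flot2 averaged 18.7 CPM in Rheb1 KO and 8.39 CPM in WT libraries, with overlap. The best measured genes were Cd36 (344 CPM in Rheb1 KO and 282 CPM in WT), Pacsin2 (160 CPM in Rheb1 KO and 138 CPM in WT), Dnm2 (139 CPM in Rheb1 KO and 88.7 CPM in WT), Ehd4 (136 CPM in Rheb1 KO and 115 CPM in WT) and Flna (109 CPM in Rheb1 KO and 97.5 CPM in WT), each overlapping between genotypes. Cavin4 and Ror1 had no counts, and Ehd3 and Plvap had none in WT libraries and were not tested.

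**Figure D5:**
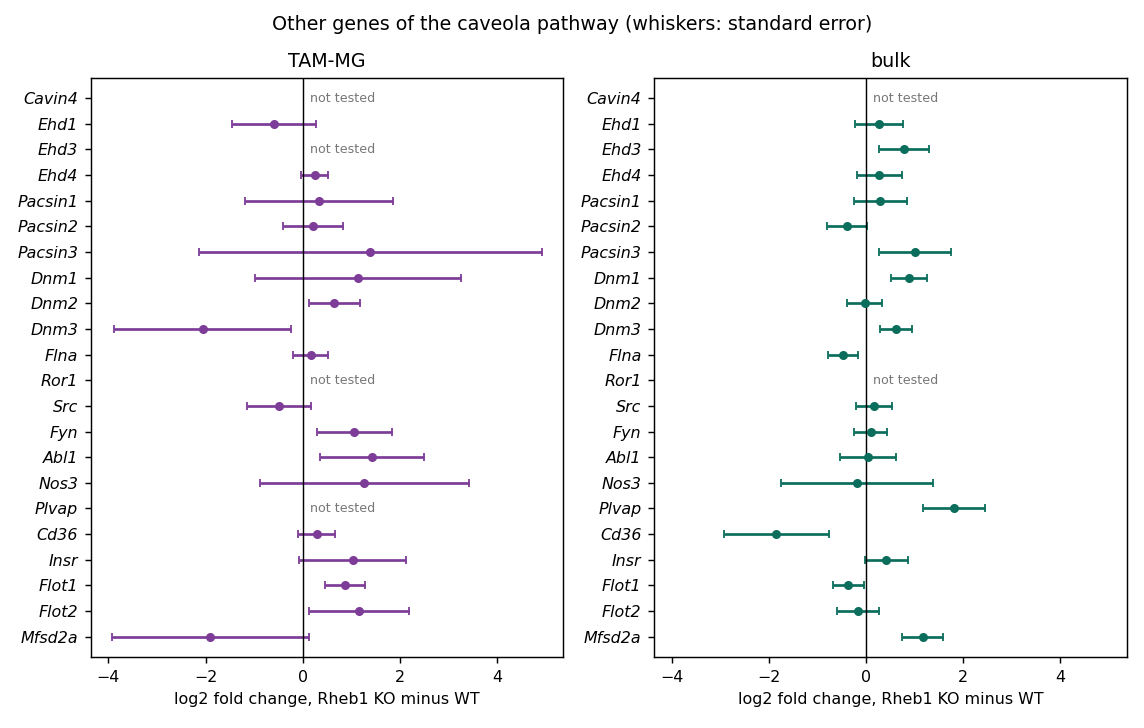
The plot shows log2 fold changes of Rheb1 KO over WT (x axis) of 22 genes of the caveola pathway (rows), in TAM-MG (left) and bulk tumours (right), with the standard error as a whisker. Plvap (1.80), Mfsd2a (1.17) and Dnm1 (0.88) were past an unadjusted p of 0.05 in bulk tumours, and none was in TAM-MG.

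Among 11166 genes of at least 10 CPM, the 5 whose log2(CPM + 1) was most like that of Cav1 over the 6 bulk tumours were Shf (Pearson r = 0.996), Sema5b (0.995), Gbp5 (0.991), Prr5l (0.989) and Csf3r (0.988). They share the genotype split of the same 6 libraries, and 54 genes were over 0.95. Of the members, Ehd2 was the most like Cav1 (r = 0.90), followed by Cavin2 (0.71), Cavin1 (0.67), Cav2 (0.53) and Cavin3 (-0.14). Over the 5 TAM-MG libraries, Irs2 (r = 0.999), Kpna1 (0.994), Thap6 (0.993), Rnf14 (0.992) and Rbmxl1 (0.991) were the most like of 8757 genes, and 71 were over 0.95. Among the members over 10 CPM, Cavin1 (-0.36) and Cavin3 (-0.51) were unlike Cav1 there. These correlations describe few libraries that share a genotype split and have no test.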

How the data were processed

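RNA-seq counts of 6 bulk GL261 tumours and 5 TAM-MG libraries were used. The deposited counts per gene are raw STAR counts, and the authors estimated the TPM values with Salmon. Both used the Ensembl reference GRCm38, after SmartSeq2 and Nextera XT libraries, whose chemistry does not keep strand. Versions of STAR and Salmon, and the strand setting, are not given in the sources used here. In the TAM-MG counts and TPM 2 unnamed total rows were left out. Of 50686 gene identifiers, 50376 (99.4%) had a name.

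Counts were tested in R 4.3.3 with edgeR 4.0.16 (filterByExpr with a minimum count of 10 and total of 15, TMM, quasi-likelihood test). Only the genotypes compared entered a fit, and the difference between TAM-MG and bulk tumours was a contrast over all 11 libraries. Calls needed a fold change of 1.5 or more and p under 0.05 after Benjamini-Hochberg adjustment over all genes tested. Alternatives were DESeq2 1.42.0, edgeR's likelihood ratio test, other scaling and filters, limma 3.58.1 on log2(TPM + 1) or log2(TPM + 0.1) (genes reaching a TPM of 1 in 2 or more libraries), all 11 libraries in 1 fit, and each library left out. The test was checked on simulated data. Intervals from a floor of 3 counts cover counting error only.

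The members, the 22 associated genes, the marker lists and the tests were chosen with earlier results of these data known. Named genes are the members, the associated genes, the first 4 genes of a marker list, Rheb and the 5 genes most like Cav1 in either experiment. Cldn5, Fn1, Mgp, Sall1, Sparc, Olfml3, genes at 0 in all libraries, Xist, Ddx3y and neighbours of Cav1 were named after their values were seen. Of the microglial markers, 1 is not reported here and enters no count. The sex of the mice is not given in the labels used here.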

Additional observations from a re-analysis of the deposited data

Results flagged for a closer look

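Cav1 differed in direction between the experiments in every library: all Rheb1 KO libraries were above both WT libraries in TAM-MG and all Rheb1 KO tumours below all WT tumours in bulk, a difference of 9.20 in log2 fold change (TAM-MG minus bulk). The difference was not tested, because Cav1 was chosen for it, and 1.73% of the genes tested in both experiments had the same pattern.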

How the results depend on the processing

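Cav1 kept its direction in either experiment under every alternative that tested it (in TAM-MG and for the difference, the filter asking for 10 counts in every library left it out), but its log2 fold change moved. It was -2.10 in bulk tumours with limma on log2(TPM + 1), and 2.55 and 5.11 in TAM-MG with limma at a pseudocount of 1 and 0.1. Leaving out each library gave -2.86 to -2.50 in bulk tumours, 5.61 to 11.15 in TAM-MG and 8.41 to 13.89 for the difference. No member other than Cav1 and no associated gene was called in bulk tumours or in TAM-MG under any alternative run. For the difference of the genotype effect, 1 member was called with DESeq2 (Cavin2, 9.41), and 0 to 1 when each library was left out (Cav2, 11.76, without WT TAM-MG library 78). The median log2 fold change of the tested members was -1.28 in bulk tumours with limma on log2(TPM + 0.1), and -1.16 to -0.79 when each tumour was left out. In TAM-MG it was 0.099 with limma on log2(TPM + 0.1), 0.34 without a filter on low counts, 0.38 with all 11 libraries in 1 fit, and -1.16 to 4.25 when each library was left out. Without the filter, with all 11 libraries and without either WT library, 6 members were tested, Cavin2 among them, against 5 in the main fit. Those medians therefore cover another set of genes than the main one.

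Some values changed sign. Cavin3 in bulk tumours was -0.054 with scaling by library size only, -0.28 and -0.29 with limma at a pseudocount of 1 and 0.1, and -0.13 to 0.12 when each tumour was left out. In TAM-MG, Ehd2 was 0.10 with limma on log2(TPM + 0.1) and -1.92 to 10.19, and Cavin1 -1.66 to 0.51, when each library was left out. For the difference, Cavin1 was -0.075 with DESeq2, -0.0085 with scaling by library size only, -0.027 when every library had to hold 10 counts, and -0.62 to 1.46 when each library was left out, and Ehd2 was -0.061 with DESeq2 and -0.86 to 11.18 when each library was left out. The causes were not tested, except that values above 10 belong to fits whose WT TAM-MG group has no counts of the gene.

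Over all genes, the quasi-likelihood test called 0 in bulk tumours, against 474 with DESeq2, 383 with the likelihood ratio test, 102 without a filter, 62 when every library had to hold 10 counts, 2 and 27 with limma at a pseudocount of 1 and 0.1, 18 with all 11 libraries in 1 fit, and 8 without Rheb1 KO tumour 37. In TAM-MG it called 0, against 477 with DESeq2, 245 with the likelihood ratio test, 40 with limma at 0.1 and 65 with all 11 libraries. For the difference it called 48, against 1206 with DESeq2, 835 with the likelihood ratio test, 76 without a filter, 3 when every library had to hold 10 counts, and 1 to 361 when each library was left out. That filter left 2 members testable in TAM-MG. With a library left out, a lone WT TAM-MG library is assumed to vary like the Rheb1 KO libraries. No paired analysis was possible because the genotypes share no replicate numbers. For depth, 0 counts allow up to 0.0935 or 0.155 CPM in a WT TAM-MG library, and in bulk tumours each member but Cav3 had 42 counts or more in every tumour.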

Other observations

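The 5 coding genes within 500 kb of Cav1 and Cav2 on chromosome 6 were looked at after the values of Cav1 were seen, as a description with no test. Tes, which encodes the focal adhesion protein testin and lies before Cav2 at chr6:17065149-17105828, was at 86.9 to 142 CPM in Rheb1 KO and 175 to 221 CPM in WT tumours, without overlap, and its log2 fold change was -0.85 (standard error 0.30). In TAM-MG it was at 52.9 to 73.8 CPM in Rheb1 KO and 32.1 to 50.4 CPM in WT libraries, again without overlap, with a log2 fold change of 0.58 (standard error 0.37). Tes thus had the same directions as Cav1 in both experiments, with smaller changes. The receptor tyrosine kinase gene Met had log2 fold changes of -0.68 in TAM-MG and -0.32 in bulk tumours, Capza2, an actin capping subunit, -0.07 in TAM-MG and -0.25 in bulk tumours, and St7 -0.52 in TAM-MG and 0.61 in bulk tumours, all with overlapping genotypes. Tfec, a transcription factor of the macrophage lineage, had no counts in Rheb1 KO tumours and was not tested there.

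Gm45667, on the strand opposite Cavin3, had no counts in bulk tumours, but 83 to 131 counts in Rheb1 KO and 227 and 264 counts in WT TAM-MG. Without strand, reads of the part shared with Cavin3 cannot be told apart.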
